A study of Homo sapiens with 22 samples.

Results

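The HOX gene clusters, 4 chromosomal blocks of homeobox genes, were described across ChIP-seq peak lists of 22Rv1, an established line of human prostate cancer cells. Every listed region that overlapped a cluster by at least 1 bp was taken, with the clusters set on the hg19 build. HOXA was chr7:27132000-27240000 (10 member genes, HOXA2 to HOXA13), HOXB was chr17:46606000-46710000 (9 genes, HOXB1 to HOXB9, with HOXB13 left out), HOXC was chr12:54332000-54450000 (9 genes, HOXC4 to HOXC13) and HOXD was chr2:176957000-177055700 (9 genes, HOXD1 to HOXD13). This gave 412 regions of 291055 in 8 lists for 37 member genes. A list holds the regions called as enriched in 1 library.

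The series measured H3K27me3, E2F3 and Pol2S5p, which is RNA polymerase II carrying a phosphate on serine 5 of its tail, in 22Rv1 cells labelled Ctrl and in cells labelled H1-10 OE, which overexpress the linker histone variant H1-10. Pol2S5p was also measured in cells given siRNA labelled siCtrl or siE2F3. The peak names inside the siCtrl and siE2F3 lists carry H1-10 overexpression, which the sample labels do not give. Each group was 1 library with no replicate, so no p-value was computed, no difference could be set against the spread between replicates, and intervals cover counting error only. The labels do not say how H1-10 was overexpressed or whether the cells are 1 clone, and the other 14 of the 22 samples (10 inputs and 4 libraries of H1-10 itself) were not analysed here.

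HOX genes encode homeodomain transcription factors that set position along the body axis, and within a cluster they lie in the order in which they act from head to tail. In cells that do not use them, the clusters are a textbook site of Polycomb repression, marked by H3K27me3. Pol2S5p marks polymerase that has begun transcription, mostly near gene starts. E2F3 is a cell cycle transcription factor that binds promoters, and linker histones bind nucleosomes and help to compact chromatin. Read from the low coordinate, the genes run from HOXA2 to HOXA13, from HOXB1 to HOXB9, from HOXC13 to HOXC4 and from HOXD13 to HOXD1. The low side is therefore the head-like (anterior) end of HOXA and HOXB and the tail-like (posterior) end of HOXC and HOXD.

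Promoter sequences are shown for HOXD13, HOXD11, HOXD10 and HOXD1, genes of the cluster whose Pol2S5p differed between a list with none and 3 lists with many regions. All of these HOXD sequences hold a CACGTG word, so they do not stand for every HOXD promoter. HOXA3 is shown as the only member, of those with a promoter entry, that held a searched E2F word. The sequences are the 250 bases before the gene start, 5′ to 3′ on the gene's strand, from RefSeq on GRCh38.p14, a different build from that of the regions, so no sequence was placed on a region. Capitals mark a CACGTG word (the E-box, read by basic helix-loop-helix factors) in the HOXD genes and the E2F word in HOXA3.
HOXD13: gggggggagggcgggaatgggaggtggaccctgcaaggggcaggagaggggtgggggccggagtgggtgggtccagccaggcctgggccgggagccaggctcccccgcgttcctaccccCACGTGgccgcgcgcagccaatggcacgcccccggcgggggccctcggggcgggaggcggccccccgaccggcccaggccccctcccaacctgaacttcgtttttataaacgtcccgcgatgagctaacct
HOXD11: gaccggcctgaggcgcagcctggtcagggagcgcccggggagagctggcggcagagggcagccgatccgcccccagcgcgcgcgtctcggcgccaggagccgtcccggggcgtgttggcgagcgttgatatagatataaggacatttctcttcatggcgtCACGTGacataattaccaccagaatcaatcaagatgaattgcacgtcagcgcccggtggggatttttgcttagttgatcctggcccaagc
HOXD10: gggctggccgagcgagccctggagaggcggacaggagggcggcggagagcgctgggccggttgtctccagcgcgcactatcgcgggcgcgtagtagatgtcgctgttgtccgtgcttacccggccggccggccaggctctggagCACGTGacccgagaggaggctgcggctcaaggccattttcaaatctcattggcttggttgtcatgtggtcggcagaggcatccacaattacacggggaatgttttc
HOXD1: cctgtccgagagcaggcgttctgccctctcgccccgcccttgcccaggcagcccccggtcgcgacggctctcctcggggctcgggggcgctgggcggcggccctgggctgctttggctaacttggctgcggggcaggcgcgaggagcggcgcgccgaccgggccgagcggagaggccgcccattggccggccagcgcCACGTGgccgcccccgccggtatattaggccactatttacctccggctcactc
HOXA3: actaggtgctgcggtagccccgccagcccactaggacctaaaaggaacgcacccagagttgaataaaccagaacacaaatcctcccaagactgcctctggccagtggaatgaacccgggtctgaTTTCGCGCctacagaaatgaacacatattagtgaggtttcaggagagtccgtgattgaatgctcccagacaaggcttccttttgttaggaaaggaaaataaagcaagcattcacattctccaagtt
The E2F words searched on both strands were TTTCCCGC, TTTCGCGC, TTTGCCGC and TTTGGCGC, which do not contain CACGTG. Of 35116 promoters of all genes, 979 (2.79%) held an E2F word, against 1 of the 27 promoter entries that matched 20 of the 37 member genes. The E-box, chosen after the sequences were seen, stood in 2228 of 35116 (6.34%) and in 8 of the 27 entries, those of HOXD13, HOXD11, HOXD10, HOXD3, HOXD1, HOXA3, HOXA4 and HOXA9. For HOXA3 it stood in another entry of the gene than the one shown. A match is a description of letters and not a bound site.

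H3K27me3 regions were absent from all 4 clusters in both lists. The Ctrl list held 2540 regions genome-wide and the H1-10 OE list 18395, and 0 of each overlapped a cluster. By background, 3.14% of the 30938 windows of 100 kb laid end to end over the genome, those on the clusters included, held a region of the Ctrl list and 15.1% a region of the H1-10 OE list. In Ctrl the nearest region to HOXA lay 1.21 Mb away, to HOXC 19.84 Mb and to HOXD 14.8 Mb, while the nearest to HOXB lay 13.6 kb above it. In H1-10 OE the distances were 3.47 Mb for HOXA, 739 kb for HOXB, 589 kb for HOXC and 5.49 Mb for HOXD. The lists hold called regions alone, and neither depth nor signal between regions is known, so a low level of the mark was not measurable. The called regions of the Ctrl list had a median width of 460.5 bp and a median fold enrichment over background of 4.83. For the H1-10 OE list these medians were 433 bp and 4.38. The lists covered 1.52 Mb and 10.1 Mb of the genome. Whether such short calls would pick up a wide stretch of the mark was not tested, so the absence of regions does not show unmarked clusters.

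Pol2S5p regions lay in the clusters in all 4 lists of that target. They were 48 of 35493 regions in Ctrl, 116 of 40626 in H1-10 OE, 102 of 83650 in siCtrl and 112 of 83067 in siE2F3. In the same order the regions made up 0.135%, 0.286%, 0.122% and 0.135% of their lists. In Ctrl they covered 42.0 kb of HOXA, 10.7 kb of HOXB, 12.4 kb of HOXC and 0 kb of HOXD. In H1-10 OE they covered 67.3 kb, 40.3 kb, 23.5 kb and 23.5 kb in the same order. All 4 clusters were covered over a greater length in H1-10 OE, by 25.4 kb in HOXA (ratio 1.60), 29.7 kb in HOXB (ratio 3.77), 11.1 kb in HOXC (ratio 1.89) and 23.5 kb in HOXD, where Ctrl had none. Over the clusters together Ctrl covered 65.1 kb (15.2% of their length) and H1-10 OE 154.6 kb (36.1%), a ratio of 2.38. By background, a region lay in 32.4% of windows of 100 kb in Ctrl, 36.1% in H1-10 OE, 40.1% in siCtrl and 39.7% in siE2F3.

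Genome-wide the H1-10 OE list of Pol2S5p was the larger by number of regions, at 40626 against 35493 in Ctrl. By covered length the lists differed in the other direction from the clusters, at 43.1 Mb in Ctrl against 39.1 Mb in H1-10 OE. The HOX clusters thus made up 0.151% of the Ctrl list's length and 0.395% of that of H1-10 OE. A difference of at least 5 kb in favour of H1-10 OE was met by all 4 clusters and by 0.614% of 100-kb windows, and one of at least 5 kb in favour of Ctrl by 1.88% of windows. At 10 kb, a size chosen after the values were seen, all 4 clusters still met it and 0.0937% of windows did (0.798% in favour of Ctrl), or 2.22% of the 1309 windows with at least 10 kb in either list. No Ctrl region together with at least 10 kb in H1-10 OE, the HOXD pattern, was found in 6 of the 30938 windows (0.0194%). The clusters were set 98.7 to 118 kb long, close to the window size. The windows lay on a fixed grid that was not fitted to gene blocks, and the effect of this was not tested.

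**Figure D1:**
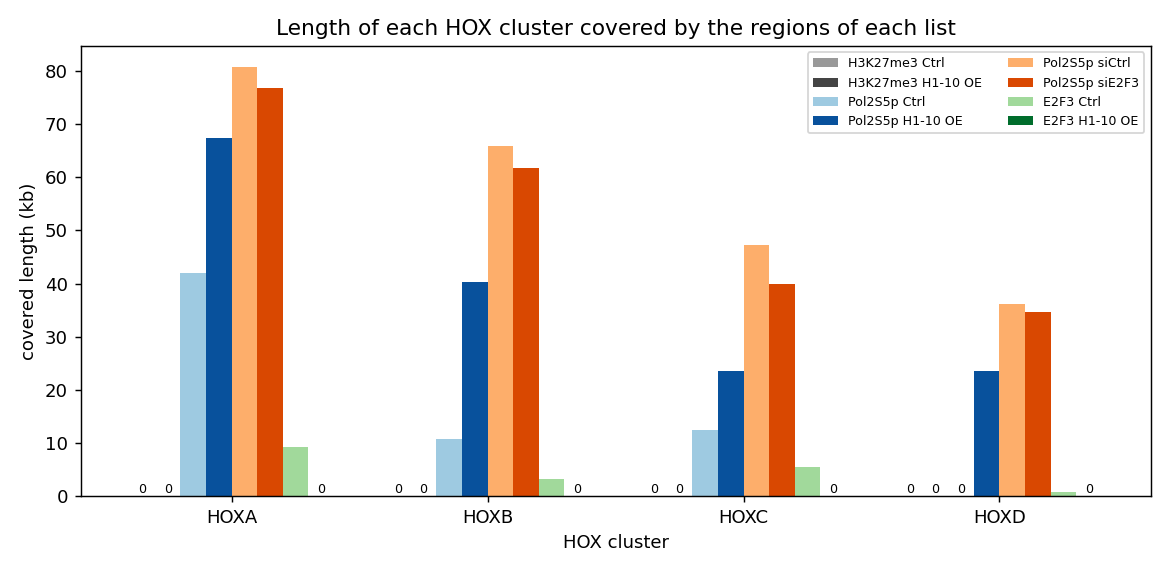
Length in kb of each HOX cluster covered by the regions of each of the 8 lists, 1 library a bar with no error bar and with 0 printed where a list had no region. Pol2S5p bars stand in all clusters except HOXD in Ctrl, and both H3K27me3 lists and E2F3 in H1-10 OE are at 0 throughout.

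HOXD had 20 Pol2S5p regions in H1-10 OE and none in Ctrl, where the nearest region lay 78.2 kb above the cluster. The strongest in H1-10 OE, by the −log10 q of the authors' caller, was chr2:176956897-176959347 at the HOXD13 end, with a fold enrichment over background of 30.0 and a −log10 q of 89.7. The widest was chr2:176968623-176974333, with 5711 bp and a fold of 24.6, and chr2:176994008-176995867 had a fold of 19.5. Both siRNA lists had regions at the same places, with chr2:176955968-176959580 at a fold of 44.5 in siCtrl and chr2:176956300-176959681 at 23.5 in siE2F3. In siCtrl the widest HOXD region was a single block, chr2:176968557-176983529, of 14973 bp.

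Coverage of HOXD was uneven along the cluster. Below its midpoint, toward HOXD13, H1-10 OE covered 20.9 kb, and above it, toward HOXD1, 2.59 kb. The siCtrl list covered 31.3 kb and 4.80 kb and the siE2F3 list 30.6 kb and 4.11 kb. The posterior end thus held most of the covered length in all 3 lists with regions. The longest stretch without a region in H1-10 OE was 16.4 kb, starting 48.6 kb from the lower bound.

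HOXB was uncovered over its anterior end in Ctrl. From the HOXB1 side, the first Ctrl region began after 49.1 kb and the first of H1-10 OE after 11.5 kb. Below the midpoint Ctrl covered 1.04 kb and H1-10 OE 10.3 kb, and above it, toward HOXB9, 9.64 kb and 30.0 kb. The Ctrl region with the highest −log10 q was chr17:46681128-46682982 with a fold of 13.2, and the widest was chr17:46687443-46690856. In H1-10 OE both were chr17:46701618-46706964, 5347 bp long with a fold of 19.0, at the HOXB9 end. Among regions of H1-10 OE with no Ctrl region, the strongest in HOXB was chr17:46670577-46672474 with a fold of 17.5.

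HOXA was the most covered cluster in every Pol2S5p list. The Ctrl list reached all 11 bins of 10 kb. No window of 30938, on a grid not fitted to gene blocks, was covered as fully as HOXA in H1-10 OE (62.3% of its length). Below the midpoint, toward HOXA2, Ctrl covered 14.6 kb and H1-10 OE 34.2 kb, and above it, toward HOXA13, 27.4 kb and 33.1 kb. The difference was thus larger on the anterior side of HOXA. The widest Ctrl region, chr7:27210821-27220963, spanned 10143 bp with a fold of 15.5, and the widest in H1-10 OE was chr7:27178215-27185821, 7607 bp with a fold of 22.4. The strongest region of H1-10 OE with no Ctrl region was chr7:27154620-27155533 with a fold of 12.5.

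HOXC had the smallest difference in kb of the 4 clusters, and the smallest share of its Ctrl length was found again in H1-10 OE. The Ctrl covered length was 6.73 kb below the midpoint, toward HOXC13, and 5.69 kb above it, against 9.23 kb and 14.2 kb in H1-10 OE. Of the Ctrl covered length, 62.1% was also covered in H1-10 OE, against 81.6% in HOXA and 85.1% in HOXB. The strongest Ctrl region was chr12:54410206-54412400 with a fold of 20.8, and the strongest in H1-10 OE, chr12:54411288-54413116 with a fold of 15.1, overlapped it. HOXC held 4 of the 6 Ctrl regions that had no H1-10 OE region. These were 4 of its 11 Ctrl regions, a share not above the 41% over the whole Ctrl list. The strongest was chr12:54348376-54349185 with a fold of 13.6, which had no region in either siRNA list.

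**Figure D2:**
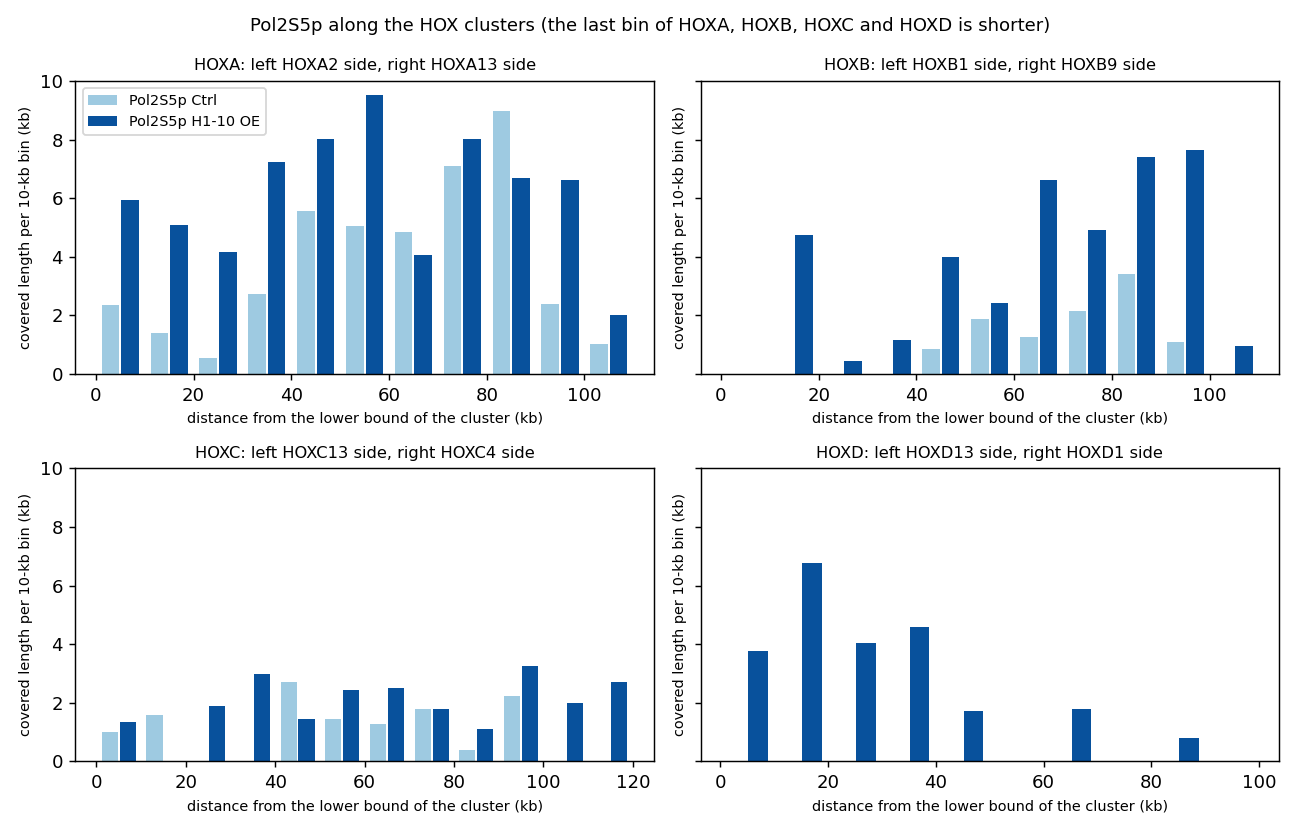
Covered length in kb of Pol2S5p regions in bins of 10 kb along each cluster, for Ctrl (light bars) and H1-10 OE (dark bars), with distance in kb from the low coordinate. HOXD has no Ctrl bar and its H1-10 OE bars stand mostly at the HOXD13 side. Others stand at 60 to 70 kb (1.80 kb) and 80 to 90 kb (0.788 kb), toward HOXD1. HOXB has no Ctrl bar in its first 4 bins.

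Counted from 1 bp of overlap, most HOX regions of Ctrl also appeared in H1-10 OE, and most of H1-10 OE did not appear in Ctrl. Without a partner in H1-10 OE were 6 of the 48 Ctrl regions (12.5%, 95% Wilson interval 5.86 to 24.7), against 41% over the whole Ctrl list. Without a partner in Ctrl were 74 of the 116 H1-10 OE regions (63.8%, 54.7 to 72.0), against 42.8% over the whole H1-10 OE list. By cluster these were 15 of 40 in HOXA, 22 of 31 in HOXB, 17 of 25 in HOXC and 20 of 20 in HOXD. The H1-10 OE regions with a Ctrl partner had a median fold of 8.70 and those without 5.51, against 8.20 and 4.61 over the whole list. Under 50% reciprocal overlap the first statement turned around, since 30 of the 48 Ctrl regions then had no partner, while 98 of the 116 of H1-10 OE had none. The whole-list shares under that rule were not computed, so these counts have no background. The neighbouring regions of a cluster are not independent of each other, which the intervals do not include. H1-10 OE covered 36.1% of the cluster length and Ctrl 15.2%, and what overlap at 1 bp this alone would give was not tested.

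The regions of H1-10 OE with no Ctrl partner were mostly found again in the siRNA lists. Of the 74, 63 (85.1%, Wilson 75.3 to 91.5) overlapped a region in siCtrl and one in siE2F3, namely 14 of 15 in HOXA, 16 of 22 in HOXB, 13 of 17 in HOXC and 20 of 20 in HOXD. Over the whole list 11736 of 17405 such regions (67.4%) did. The siCtrl list covered 53.6% of the cluster length and the siE2F3 list 49.7%. How much overlap such coverage would give was not tested. By length, 86.1 kb of the clusters was covered in H1-10 OE, siCtrl and siE2F3 but not in Ctrl, 49.1 kb in all 4 lists and 3.97 kb in Ctrl alone. The length shared by those 3 lists and missing from Ctrl was 25.1 kb in HOXA, 24.7 kb in HOXB, 13.0 kb in HOXC and 23.2 kb in HOXD. The length found in all 4 lists was 32.6 kb in HOXA, 8.78 kb in HOXB and 7.71 kb in HOXC. No Pol2S5p list covered 16.7 kb of HOXA, 31.1 kb of HOXB, 62.7 kb of HOXC and 60.9 kb of HOXD, so HOXC and HOXD had a longer uncovered length than HOXA and HOXB. The 3 lists that cover HOXD are those with H1-10 OE in the label or peak names. The siRNA lists carry another folder label in the authors' peak names than the Ctrl and H1-10 OE lists, and their part in this pattern was not tested.

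**Figure D3:**
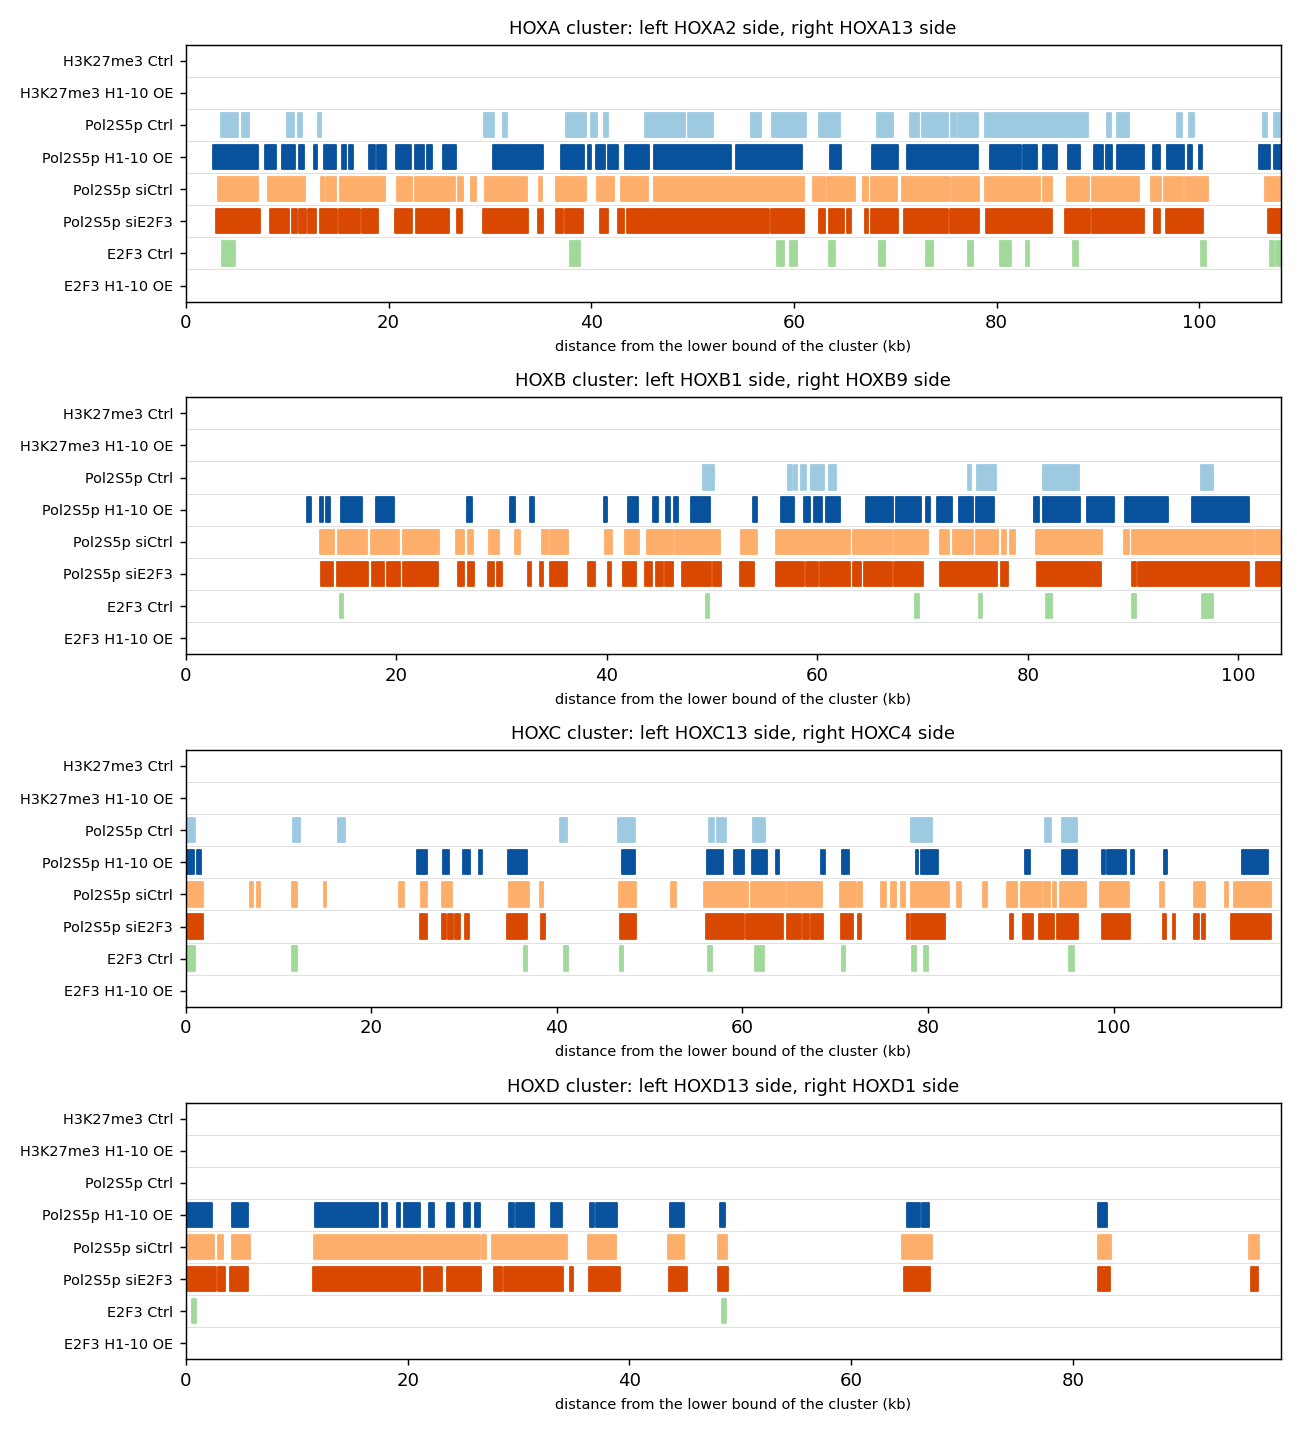
Regions of the 8 lists drawn to scale along each HOX cluster, 1 row a list, with distance in kb from the low coordinate of the cluster. The HOXD row of Pol2S5p in Ctrl is empty while those of H1-10 OE, siCtrl and siE2F3 hold 20, 12 and 17 regions, and the H3K27me3 rows are empty in every cluster.

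E2F3 regions lay in all 4 clusters in Ctrl and in none in H1-10 OE, where by background 37.9% and 8.91% of 100-kb windows held a region. Ctrl held 34 regions, covering 9.24 kb of HOXA (14 regions), 3.17 kb of HOXB (7), 5.42 kb of HOXC (11) and 0.849 kb of HOXD (2). H1-10 OE held 0 regions and its nearest lay 404 kb from HOXA, 14.02 kb from HOXB, 161 kb from HOXC and 106 kb from HOXD. All 34 Ctrl regions were therefore without a partner (100%, Wilson 89.8 to 100), against 97.4% over the whole Ctrl list, which is close to that background. The E2F3 list was 22988 regions in Ctrl and 4296 in H1-10 OE, and the strongest 4296 of the Ctrl list held 2 HOX regions. By length, HOXA and HOXC met a difference of at least 5 kb in favour of Ctrl, which 0.873% of windows met. With 0 kb in H1-10 OE, that difference was the Ctrl length itself. Only the 37.9% of windows with a Ctrl region could meet it, and no share among them was computed.

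The E2F3 regions of Ctrl were of modest strength for their list. The median fold of the 34 was 6.85, against 8.98 over the list, and 2 of 34 lay in its strongest 10%. The 2 strongest by −log10 q were chr7:27169863-27170875 in HOXA, with a fold of 22.6 and a −log10 q of 92.8, and chr12:54332099-54332972 at the HOXC13 end, with a fold of 22.8. By cluster the folds ran from 4.28 to 22.6 in HOXA (median 6.15), from 4.22 to 16.2 in HOXB (median 6.39) and from 4.35 to 22.8 in HOXC (median 7.77), so the 3 clusters overlapped. HOXB's strongest was chr17:46702579-46703607, with a fold of 16.2, at the HOXB9 end. In HOXD they were chr2:177005307-177005739, with a fold of 15.0, and chr2:176957531-176957946 at the HOXD13 end, with a fold of 6.21.

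Most E2F3 regions of Ctrl in the clusters overlapped a Pol2S5p region, as did most over the whole E2F3 list. Of the 34 E2F3 regions, 25 (73.5%, Wilson 56.9 to 85.4) overlapped a Ctrl Pol2S5p region, 32 (94.1%) one of H1-10 OE, 33 (97.1%) one of siCtrl and 32 (94.1%) one of siE2F3. Over the whole E2F3 list these shares were 68%, 64.6%, 70.6% and 67.8%, so the share in Ctrl Pol2S5p, the pair from cells of the same label, was close to its background, which lay inside its interval. The Pol2S5p lists covered 15.2% of the cluster length in Ctrl, 36.1% in H1-10 OE, 53.6% in siCtrl and 49.7% in siE2F3. How much overlap such coverage would give was not tested. All 4 Pol2S5p lists covered 23 of them, and 9 were covered in the 3 lists other than Ctrl, including both in HOXD. Exceptions were chr12:54343472-54343958 (fold 17.3), with Pol2S5p in Ctrl and siCtrl, and chr12:54372749-54373211 (fold 10.8), with Pol2S5p in Ctrl alone. The E2F3 list carries the folder label of the siRNA lists, so its overlaps with Pol2S5p in Ctrl and in H1-10 OE cross that difference in label.

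Pol2S5p under siE2F3 covered slightly less of each cluster than under siCtrl. The covered length was 80.7 kb in siCtrl and 76.7 kb in siE2F3 for HOXA, 65.8 kb and 61.6 kb for HOXB, 47.2 kb and 39.9 kb for HOXC and 36.1 kb and 34.7 kb for HOXD. The sum was lower by 16.9 kb, a ratio of 0.927, in lists that covered 102.5 Mb and 90.7 Mb of the genome. A difference of at least 5 kb in favour of siCtrl was met by HOXC and not by the other clusters, and 2.52% of windows met it. That call depended on the setting: at a −log10 q of at least 5, HOXA (-6.459 kb) and HOXB (-8.052 kb) met it too, and with the clusters widened by 10 kb HOXB did (-5.135 kb). Of the siCtrl length 86.4% was also covered in siE2F3, and of the siE2F3 length 93.2% in siCtrl.

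Counted from 1 bp of overlap, few HOX regions belonged to one siRNA list alone. They were 17 of the 102 siCtrl regions (16.7%, Wilson 10.7 to 25.1), against 30.6% over the whole list. By cluster they were 1 of 29 in HOXA, 3 of 27 in HOXB, 12 of 34 in HOXC and 1 of 12 in HOXD. In siE2F3 they were 9 of 112 (8.04%, Wilson 4.29 to 14.6), against 22.9% over the list. Under 50% reciprocal overlap they were 40 of 102 and 50 of 112, with the whole-list shares under that rule not computed. At 1 bp their median fold was 3.94 in siCtrl and 3.29 in siE2F3, against 8.47 and 5.92 for shared ones. Over the whole lists, too, the regions of one list alone had the lower median, at 3.96 and 3.74 against 5.77 and 4.97. The strongest were chr12:54384320-54384852 in siCtrl, with a fold of 5.77, and chr7:27144059-27144808 in siE2F3, with a fold of 4.64. The siCtrl list covered 53.6% of the cluster length and the siE2F3 list 49.7%. The HOX regions were also wider than their whole lists by median (1604 and 1285.5 bp against 637 and 582 bp). What overlap at 1 bp this alone would give was not tested.

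**Figure D4:**
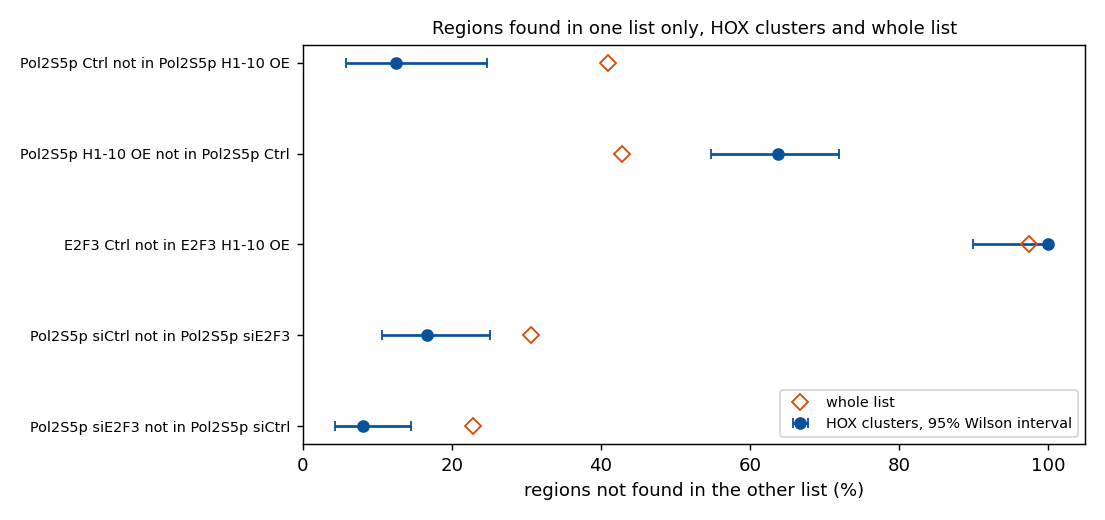
Percent of the regions of one list that had no region overlapping by at least 1 bp in the other, for HOX cluster regions (points with 95% Wilson intervals) and for the whole list (open diamonds). The Pol2S5p regions of H1-10 OE without a Ctrl partner lie above their whole list, and the other Pol2S5p shares below.

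The longest Pol2S5p regions in the clusters were in the siRNA lists. In siCtrl the HOXA region chr7:27178221-27192989 was 14769 bp with a fold of 28.6, and in siE2F3 the same place held chr7:27177737-27189499 and chr7:27189729-27193022. At the HOXB9 end siCtrl had chr17:46695877-46707526, 11650 bp with a fold of 35.8, and siE2F3 chr17:46696420-46707039. Within their lists, 23 of 102 HOX regions of siCtrl (22.5%, Wilson 15.5 to 31.6) and 22 of 112 of siE2F3 (19.6%, 13.3 to 28.0) were among the strongest 10%, against 1 of 48 in Ctrl and 4 of 116 in H1-10 OE. The median HOX width was 890 bp in Ctrl, 948.5 bp in H1-10 OE, 1604 bp in siCtrl and 1285.5 bp in siE2F3, and that of the whole lists 765, 641, 637 and 582 bp.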

How the data were processed

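The clusters, the member genes and the comparisons were chosen with earlier results of these data known. Reads were handled with FastQC, fastp and Bowtie on hg19, per the submitters' processing notes. The peak caller, its settings and the matching inputs were not given in the sources used here. The authors called peaks library by library, since every list belongs to 1 sample. The deposited lists give a score per peak, a fold enrichment (a ratio to the caller's background), −log10 p and −log10 q values, and a summit offset in bp. Fold and −log10 q are the authors' values and were ranked only within a list. Folds of different lists that are printed side by side were not put on a common scale. The alternative cut of −log10 q was the same for every list.

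Regions were joined where they touched and counted in a cluster from 1 bp of overlap. Covered length was summed per cluster, in bins of 10 kb and in windows of 100 kb, and a difference of 5 kb or more was called. Strength was ranked by −log10 p. Regions were named by a rule: the widest and the highest −log10 q in each list and cluster, and the up to 5 highest of each direction of a comparison found in one list only; others named were chosen after their values were seen. An hg19 annotation was not used here, so the planned counts at gene starts, of HOX partner genes and of cell type markers were not run, and the label 22Rv1 was not checked. Gene order and promoters are from RefSeq on GRCh38.p14. The depth of the libraries is unknown here, which limits every comparison of list length. The folder label in the peak names of H3K27me3 and of Pol2S5p without siRNA differs from that of E2F3 and the siRNA lists. Each pair shares its label. Alternatives were −log10 q of at least 5, merging within 1 kb, 50% reciprocal overlap, summits, clusters widened by 10 kb and equal numbers of peaks. Computations used Python 3.11.15, numpy 2.4.6, pandas 2.3.3, scipy 1.17.1, matplotlib 3.10.9 and bedtools 2.31.1, and the overlap code was tested on simulated data.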

Additional observations from a re-analysis of the deposited data

How the results depend on the processing

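Of 336 values recomputed under other settings, 307 stayed within 1.5 times the reported value, 29 moved further and 0 reversed. A value of 0 that stayed 0, as in the H3K27me3 lists, was counted among the 307, and a stricter filter cannot raise it. Only a difference in covered length of at least 5 kb could be labelled reversed. Counts could not, so these totals say little on how stable the counts are. Widening the clusters by 10 kb, or asking for the summit in the cluster, moved none of 64 values each. At a −log10 q of at least 5, Pol2S5p regions in Ctrl were 29, those of Ctrl without H1-10 OE 3 and those of siE2F3 without siCtrl 3, and siE2F3 minus siCtrl was -6.459 kb in HOXA and -8.052 kb in HOXB. With peaks within 1 kb merged, the regions were 29 in Ctrl, 56 in H1-10 OE, 50 in siCtrl and 45 in siE2F3. Those of H1-10 OE without Ctrl were then 35, of siCtrl without siE2F3 7 and of siE2F3 without siCtrl 1, and the siE2F3 minus siCtrl difference was -1.652 kb in HOXA, -0.847 kb in HOXB and -0.721 kb in HOXD. Under 50% reciprocal overlap, regions without a partner were 30 for Ctrl against H1-10 OE, 40 for siCtrl and 50 for siE2F3, and by the summit in the other list 10 for Ctrl. No whole-list share was computed under these settings. With both lists limited to an equal number of peaks, E2F3 regions of Ctrl were 2, both without a partner, covering 1.013 kb of HOXA and 0.874 kb of HOXC and 0 kb of HOXB and HOXD, so the differences were -1.013, -0.874, 0 and 0 kb. Merging, stricter overlap and shorter lists change such counts by construction, and any other cause was not tested. No paired analysis was possible because each group was 1 library with no replicate number. Depth is unknown, so weak regions were not measurable.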

Other observations

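A stretch of chromosome 17 above the HOXB cluster, outside its bounds, held the H3K27me3 region of Ctrl nearest to any HOX cluster. It was chr17:46723570-46724067, with a fold of 4.47. Pol2S5p regions overlapped it in H1-10 OE (chr17:46723323-46725221, fold 20.6), siCtrl (chr17:46722109-46725281, fold 13.2) and siE2F3 (chr17:46722153-46725366, fold 15.7), but none in Ctrl. An E2F3 region of H1-10 OE, chr17:46724022-46724346 with a fold of 3.40, overlapped it by 46 bp, and no E2F3 region of Ctrl and no H3K27me3 region of H1-10 OE did.

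In the 100 kb above the clusters, Pol2S5p covered less in H1-10 OE than in Ctrl beside HOXB (6.26 kb and 12.2 kb) and beside HOXA (1.02 kb and 1.96 kb), and more beside HOXC (4.33 kb and 0.47 kb) and HOXD (1.14 kb and 0.684 kb). In the 100 kb below, it covered more in H1-10 OE beside HOXB (0.568 kb and 0 kb), HOXC (0.124 kb and 0.043 kb) and HOXD (2.60 kb and 1.26 kb), and 0 kb in both beside HOXA.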
